A study of Mus musculus with 12 samples.

Results

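The IL-4 receptor chains and the regulators that act downstream of them were followed in bone marrow-derived macrophages (BMDMs) as 9 genes, *Il4ra*, *Il13ra1*, *Il2rg*, *Egr2*, *Myc*, *Klf4*, *Pparg*, *Kdm6b* and *Batf3*. They were named by their role, with earlier results of these data known, and matched by gene symbol. They stand for 9 of the 32301 genes or transcripts on the array, with 12 of its 41174 probes. RNA was measured on 12 one-colour arrays, 2 for each of 6 groups. Bone marrow of 8 weeks old C57BL/6 mice (C57BL6/J in the methods) was grown for 7 days with M-CSF at 20 ng per ml, which was withdrawn before the stimulus. The WT mice carried *Keap1*. The KpCKO mice (Keap1 CKO in the labels) carried floxed *Keap1* alleles and a Cre recombinase driven from the *LysM* locus, so that deletion follows the myeloid lineage. The adaptor KEAP1 directs the transcription factor NRF2 to degradation. From each genotype, cells were left without stimulus (Con), given LPS at 5 ng per ml and IFNγ at 10 ng per ml for 6 h (M1), or given IL-4 at 10 ng per ml for 6 h (M2). Culture 1 came from 1 male WT and 1 male KpCKO mouse, and culture 2 from 1 female mouse of each genotype, so the 12 arrays hold 4 mice, and culture cannot be told apart from sex.

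IL-4 binds IL-4Rα, encoded by *Il4ra*, which then pairs with the common gamma chain, encoded by *Il2rg*, or with IL-13Rα1, encoded by *Il13ra1*. Janus kinases bound to the chains phosphorylate STAT6, which enters the nucleus and switches on target genes. In macrophages the transcription factors EGR2, MYC, KLF4 and PPARγ, the histone H3K27 demethylase KDM6B (JMJD3) and the AP-1 family member BATF3 are known as regulators of the alternative, or M2, gene programme. KDM6B is also known as a gene that LPS induces, and KLF4 and PPARγ as restraints on inflammatory genes.

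Before the members' values, 3 facts of the arrays bear on all of them. *Keap1* was lower in KpCKO in every condition, with log2 differences of −1.46 (Con), −1.71 (M1) and −1.81 (M2), each past limma's test. Each slide carried the 4 arrays of 1 stimulus, so a difference between stimuli cannot be told apart from a difference between slides. The M2 slide was also scanned on another day than the Con and M1 slides, so IL-4 differences cannot be told apart from scan day either. The genotypes were compared within a slide. The 75th percentile of the array signal, to which each level is set, was 548 to 757 on the WT M1 arrays, 787 to 906 on KpCKO M1 and 966 to 1166 on the others. Of 7 macrophage markers on the array, 7 were well above background on all 12 arrays, with a summed level of 346 to 749 times the 75th percentile. Markers of other cells were also measured, 5 of 5 for stromal cells (summed level 22.1 to 52.9), 5 of 7 for neutrophils (3.15 to 16.5), 2 of 4 for B cells (0.175 to 0.973), 1 of 5 for T cells and 1 of 4 for mast cells and basophils on all 12 arrays. Within these lists *Cd3d* (T cells), *Ms4a1* (B cells), *Ms4a2* (mast cells and basophils) and *Elane* (neutrophil precursors) were above background on none. The part of other cells in the members' levels was not tested.

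The upstream sequences of the pair of genes with the steepest rise under IL-4 are shown first, with motifs in capitals. The RefSeq promoter table (build GRCm38.p6) held 13 windows for 7 of the 9 genes, and none was matched for *Myc* and *Kdm6b*. The runs below cover the 250 bases before a transcription start on the plus strand, 1 for *Batf3* (chr1:191098164-191098413) and 2 of the 5 *Egr2* starts (chr10:67535249-67535498 and chr10:67537619-67537868).
Batf3: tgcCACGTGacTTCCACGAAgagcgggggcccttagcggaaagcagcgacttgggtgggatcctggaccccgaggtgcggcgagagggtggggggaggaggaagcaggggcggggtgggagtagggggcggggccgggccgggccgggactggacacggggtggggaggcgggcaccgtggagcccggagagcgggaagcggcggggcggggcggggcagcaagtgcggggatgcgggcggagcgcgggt
Egr2, upstream start: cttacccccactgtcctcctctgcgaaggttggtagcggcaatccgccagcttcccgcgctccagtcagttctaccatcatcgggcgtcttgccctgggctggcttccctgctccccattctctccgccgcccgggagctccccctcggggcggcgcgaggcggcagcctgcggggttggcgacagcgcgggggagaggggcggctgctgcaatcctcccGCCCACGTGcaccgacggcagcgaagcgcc
Egr2, downstream start: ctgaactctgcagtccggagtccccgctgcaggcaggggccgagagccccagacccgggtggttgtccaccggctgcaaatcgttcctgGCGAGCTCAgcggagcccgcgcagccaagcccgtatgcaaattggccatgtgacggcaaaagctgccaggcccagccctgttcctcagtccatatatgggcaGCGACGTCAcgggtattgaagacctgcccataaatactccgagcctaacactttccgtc
The motifs searched on both strands were the STAT6 site TTCNNNNGAA, the site of other STATs TTCNNNGAA, the antioxidant response element (ARE) cores TGAGNNNGC and TGACNNNGC, the MYC E-box CACGTG, the EGR site CGTGGGC and the AP-1 site TGACTCA. The *Batf3* run holds an E-box 247 bases before the start and TTCCACGAA, a match to the other-STAT site, 239 bases before it. The upstream *Egr2* run holds an EGR site and an E-box, 30 and 27 bases before the start, which overlap. The downstream *Egr2* run holds 1 match to each ARE core, 161 and 59 bases before the start. Among all 32851 windows of the table, 300 bases each, the shares with a match were 6.95% for the STAT6 site, 8.3% for the other-STAT site, 17.6% and 12.4% for the ARE cores, 7.15% for the E-box, 4.24% for the EGR site and 5.2% for the AP-1 site. The STAT6 and AP-1 letters were in 0 of the 13 members' windows, which says only that these letters are not in these windows.

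All levels that follow are log2 signals relative to the array's 75th percentile, given for culture 1 and then culture 2, and all differences are log2 differences between group means with n = 2 arrays each. They are levels of RNA per array, and a smaller share of responding cells cannot be told apart from less RNA in each cell. All 12 member probes were well above background on all 12 arrays. Where the arrays of groups are said not to overlap, the share of all genes that separate so was not counted. The plot of levels by array shows every member.

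**Figure D1:**
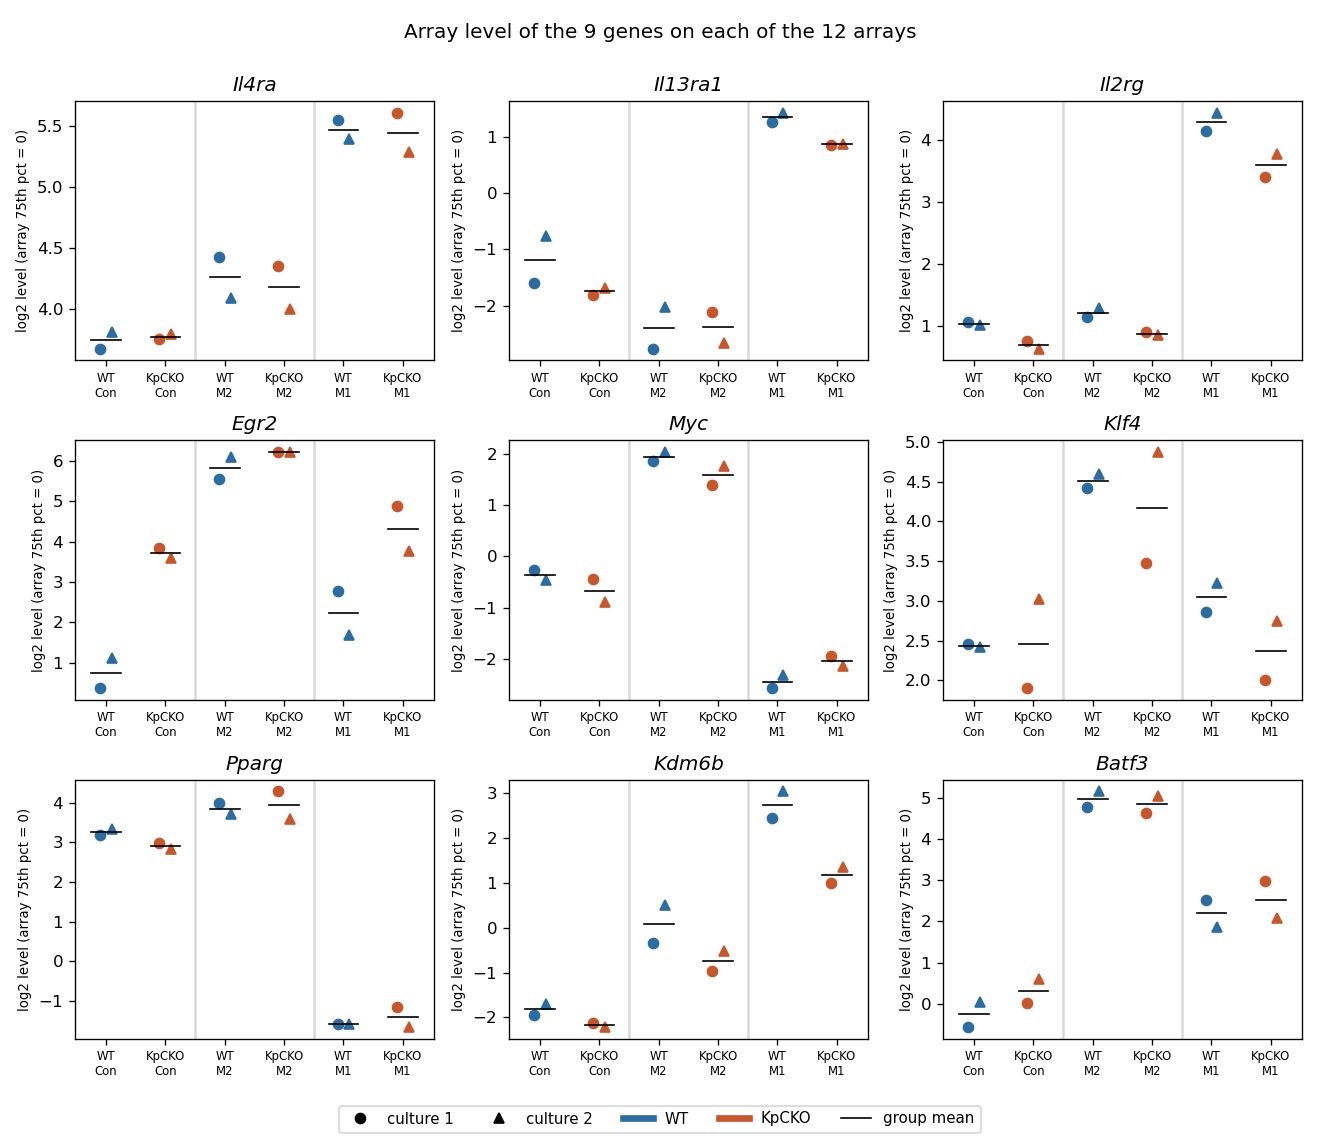
Log2 level (vertical axis, array 75th percentile at 0) of the 9 genes in the 6 groups; circles are culture 1, triangles culture 2, and horizontal lines group means. *Egr2* and *Batf3* were highest in M2, *Il2rg*, *Il13ra1* and *Kdm6b* in M1, and *Pparg* fell below −1 on every M1 array.

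In WT BMDMs IL-4 raised 5 of the 9 genes, *Batf3*, *Egr2*, *Myc*, *Klf4* and *Kdm6b*, and lowered 1, the receptor chain *Il13ra1*. The 2 other receptor chains and *Pparg* did not pass the test. Over all 22372 genes tested, limma's test (Benjamini-Hochberg adjusted p under 0.05) called 16.8%, with 8.62% higher and 8.20% lower. The members' median log2 difference was 1.91 in WT, against −0.00876 over all genes. Because the 9 genes were chosen with earlier results of these data known, neither contrast with all genes is a test of the set.

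Of the 3 receptor chains 1 passed under IL-4. *Il4ra* was at 3.67 and 3.81 in WT Con and at 4.43 and 4.09 in WT M2. The groups did not overlap, but the difference of 0.52 ± 0.15 (SE) did not pass (limma, adjusted p = 0.0586). It passed when only genes above background on all 12 arrays were tested (limma, adjusted p = 0.0387) and with trended and robust variances (limma, adjusted p = 0.0298). *Il2rg* was at 1.07 and 1.02 in WT Con and at 1.15 and 1.29 in WT M2, a difference of 0.18 with a 95% interval of −0.17 to 0.52. *Il13ra1* was at −1.61 and −0.77 in WT Con and at −2.76 and −2.03 in WT M2, so that each culture was lower under IL-4, and the difference was −1.21 ± 0.32 (SE, limma, adjusted p = 0.0434). That call was lost without any 1 of the 4 arrays (−0.84 to −1.58, adjusted p from 0.07 to 0.24), with normexp background correction (−0.78, adjusted p = 0.174), without the filter on dim genes (adjusted p = 0.0776) and without culture as a replicate block (adjusted p = 0.0659). The second *Il13ra1* probe, A_52_P552194, gave −1.52 ± 0.27 (SE, limma, adjusted p = 0.0127).

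The rise was steepest for *Batf3* and *Egr2*. *Batf3* was at −0.57 and 0.05 in WT Con and at 4.78 and 5.16 in WT M2, a 37.6-fold difference (log2 5.23 ± 0.41 SE, limma, adjusted p = 0.000904). *Egr2* was at 0.37 and 1.11 in WT Con and at 5.55 and 6.11 in WT M2, a 34.0-fold difference (log2 5.09 ± 0.48 SE, limma, adjusted p = 0.00166). Of 22372 genes ordered by the difference, highest first, *Batf3* was number 24 and *Egr2* number 33.

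*Myc* went from −0.27 and −0.46 in WT Con to 1.86 and 2.04 in WT M2, or 4.97-fold (log2 2.31 ± 0.21 SE, limma, adjusted p = 0.00134). *Klf4* went from 2.45 and 2.42 to 4.42 and 4.6, or 4.20-fold (log2 2.07 ± 0.34 SE, limma, adjusted p = 0.0103). The *Klf4* call was lost without WT Con replicate 2 (1.68, adjusted p = 0.0738) and without WT M2 replicate 1 (1.80, adjusted p = 0.0716). *Kdm6b* went from −1.94 and −1.70 to −0.34 and 0.52, or 3.76-fold (log2 1.91 ± 0.21 SE, limma, adjusted p = 0.00264). For each of these genes both IL-4 arrays lay above both Con arrays, a separation that was not counted over all genes. *Pparg*, already at 3.20 and 3.34 in WT Con, was at 3.99 and 3.71 in WT M2, and the difference of 0.58 had a 95% interval of 0.10 to 1.06 (limma, adjusted p = 0.0974).

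In KpCKO BMDMs IL-4 raised 6 of the 9 genes and lowered none that passed, while 10.2% of all genes were called, 5.66% higher and 4.53% lower. *Batf3* was at 0.01 and 0.61 in KpCKO Con and at 4.64 and 5.05 in KpCKO M2, 23.2-fold higher (limma, adjusted p = 0.00218). *Egr2* was at 3.85 and 3.60 in KpCKO Con and at 6.22 and 6.22 in KpCKO M2, 5.65-fold higher (log2 2.50 ± 0.48 SE, limma, adjusted p = 0.0247). The KpCKO arrays thus lay above those of WT before the stimulus and, by a smaller step, after it.

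*Myc* rose by 2.25, *Klf4* by 1.71, *Kdm6b* by 1.43 and *Pparg* by 1.04 in KpCKO (limma, adjusted p from 0.00224 to 0.0277). The arrays of *Pparg* were at 2.99 and 2.82 in Con and at 4.29 and 3.61 in M2, without overlap. Those of *Klf4* were at 1.91 and 3.02 in Con and at 3.48 and 4.87 in M2, without overlap but with culture 2 above culture 1 in both conditions. With 1 of the 4 KpCKO Con and M2 arrays left out, 2 to 3 of the 9 genes passed, and *Myc* and *Batf3* passed in each case. *Egr2* failed in all 4 (adjusted p from 0.0962 to 0.131), *Pparg* without KpCKO Con replicate 1 (0.124), KpCKO Con replicate 2 (0.118) or KpCKO M2 replicate 1 (0.118), *Klf4* without KpCKO Con replicate 1 (0.143), KpCKO Con replicate 2 (0.0882) or KpCKO M2 replicate 2 (0.139), and *Kdm6b* without KpCKO Con replicate 2 (0.0614), KpCKO M2 replicate 1 (0.055) or KpCKO M2 replicate 2 (0.0709), all limma adjusted p.

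**Figure D2:**
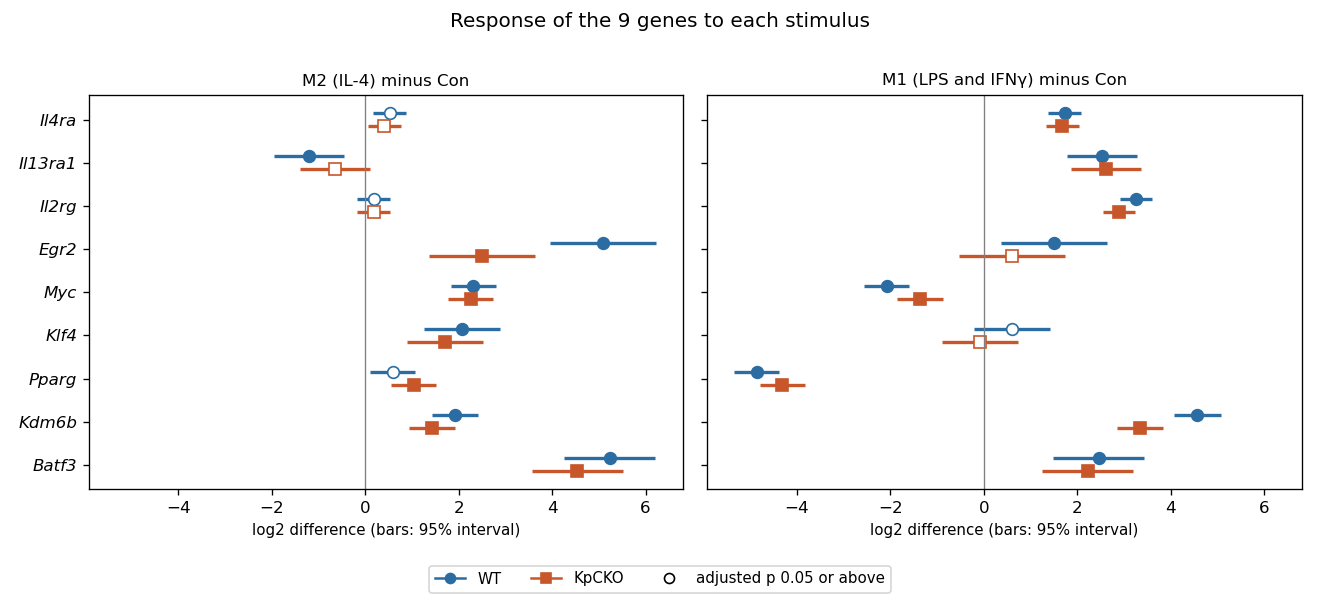
Log2 difference from Con (horizontal axis) of the 9 genes under IL-4 (left) and under LPS with IFNγ (right), in WT (circles) and KpCKO (squares), with 95% intervals; open symbols did not pass limma's test. *Myc* and *Pparg* lie right of 0 under IL-4 and left of 0 under LPS with IFNγ, and the receptor chains lie further right under LPS with IFNγ.

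LPS with IFNγ raised all 3 receptor chains, *Kdm6b*, *Batf3* and *Egr2* in WT BMDMs and lowered *Myc* and *Pparg*. These were 8 of the 9 genes, where 63.2% of all genes tested were called, 34.5% higher and 28.7% lower, so a count of this size is read against a high background. The median of all genes moved by 0.126 in this comparison with the 75th percentile as reference and by −0.0789 with quantile normalization, and a difference is best read relative to that shift. The M1 and M2 differences share their Con arrays. In KpCKO 7 of the 9 passed, *Egr2* not among them, where 50.2% of all genes were called, 24.8% higher and 25.4% lower.

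*Il2rg* was at 4.15 and 4.44 in WT M1, against 1.07 and 1.02 in WT Con, or 9.52-fold higher (log2 3.25 ± 0.15 SE, limma, adjusted p = 8.24e-06). *Il13ra1* was at 1.27 and 1.43 in WT M1, or 5.79-fold higher than in Con (limma, adjusted p = 0.00045), so the chain that was lower under IL-4 was higher under LPS with IFNγ. *Il4ra* was at 5.55 and 5.39 in WT M1, or 3.32-fold higher (limma, adjusted p = 8.81e-05). For all 3 chains both WT M1 arrays lay above every Con and M2 array of either genotype. The share of all genes with such a separation was not counted. The second *Il13ra1* probe gave 2.24 (limma, adjusted p = 0.000391).

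*Kdm6b* was at 2.45 and 3.05 in WT M1, or 23.8-fold above WT Con (log2 4.57 ± 0.21 SE, limma, adjusted p = 8.36e-06). Its order in WT was Con, M2, M1, with no overlap between neighbours. *Batf3* was at 2.53 and 1.87 in WT M1, or 5.50-fold above Con (limma, adjusted p = 0.00176), and its order in WT was Con, M1, M2, also without overlap. How many of all genes show an order without overlap was not counted. *Egr2* was at 2.79 and 1.69 in WT M1, and its rise of 1.5 ± 0.48 (SE, limma, adjusted p = 0.0296) was 2.41 in culture 1 and 0.59 in culture 2. That call was lost without WT Con replicate 1 (0.95, adjusted p = 0.188) and without WT M1 replicate 1 (0.96, adjusted p = 0.174).

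*Pparg* fell to −1.58 and −1.60 in WT M1, a 29.1-fold difference from Con (log2 −4.86 ± 0.20 SE, limma, adjusted p = 6.42e-06). Of 22362 genes ordered by the difference, lowest first, it was number 64. *Myc* was at −2.57 and −2.32 in WT M1, a difference of −2.08 ± 0.21 (SE, limma, adjusted p = 0.000155), so that its order in WT was M1, Con, M2 with no overlap. *Klf4* was at 2.86 and 3.23 in WT M1, above both Con arrays, but the difference of 0.61 had a 95% interval of −0.21 to 1.42 (limma, adjusted p = 0.161).

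In KpCKO the M1 differences from Con were 1.68 for *Il4ra*, 2.61 for *Il13ra1*, 2.89 for *Il2rg*, 3.34 for *Kdm6b*, 2.22 for *Batf3*, −1.37 for *Myc* and −4.32 for *Pparg* (limma, adjusted p at most 0.00384). *Egr2* was at 4.88 and 3.77 in KpCKO M1, overlapping KpCKO Con, with a difference of 0.60 (limma, adjusted p = 0.337). *Klf4* was at 2.0 and 2.75, with a difference of −0.09 (limma, adjusted p = 0.849).

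The *Myc* result was followed on 3 probes and that of *Il13ra1* on 2. The IL-4 rise of *Myc* in WT was 2.31, 2.35 and 1.97 on the 3 probes, each past limma's test. Its M1 fall in WT was −2.08 and −1.89 on the brighter probes and −0.79 on the dimmest, A_52_P278549 (limma, adjusted p = 0.0237), whose M1 difference in KpCKO was −0.64 and did not pass (limma, adjusted p = 0.0611).

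**Figure D3:**
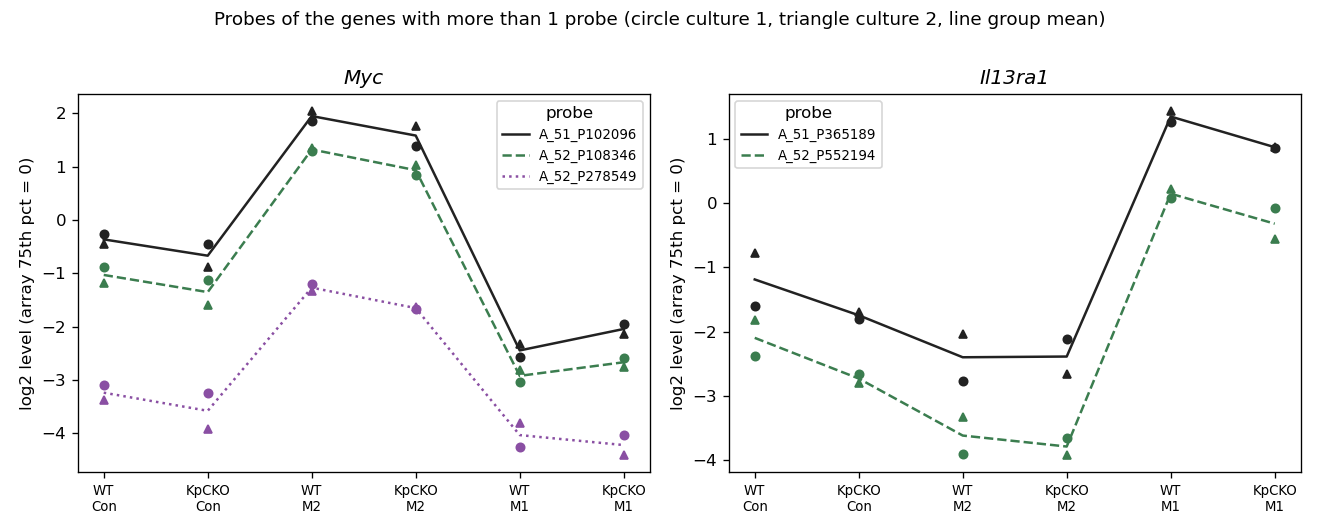
Log2 level (vertical axis) in the 6 groups of the 3 *Myc* probes and the 2 *Il13ra1* probes; circles are culture 1, triangles culture 2, lines join group means. The probes of a gene keep the same order of M1, Con and M2 in each genotype, and the dimmest *Myc* probe has the smallest step between Con and M1.

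Between the genotypes the largest differences among the 9 genes were those of *Egr2*, higher in KpCKO, and *Kdm6b*, lower in KpCKO. Without stimulus 1 of 9 passed, *Egr2*, where 2.22% of all genes were called. In M1 3 of 9 passed, *Egr2* higher and *Il2rg* and *Kdm6b* lower in KpCKO, where 16.0% were called. In M2 0 of 9 passed limma's test, where 1.93% of all genes were called, and *Kdm6b* was the 1 gene with an unadjusted p under 0.05. In the methods' t-test, unadjusted, 1 of 9 passed in M2, as did 1740 of 22207 genes overall. That gene was *Il2rg* and not *Kdm6b*.

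*Egr2* was 7.91-fold higher in KpCKO Con than in WT Con, with both KpCKO arrays (3.85 and 3.60) above both WT arrays (0.37 and 1.11). The log2 difference was 2.98 ± 0.48 (SE), 3.47 in culture 1 and 2.49 in culture 2 (limma, adjusted p = 0.0326). The call was lost without any 1 of the 4 arrays (2.43 to 3.54, adjusted p from 0.075 to 0.207), without the filter on dim genes (adjusted p = 0.0607) and with only these groups in the fit (adjusted p = 0.174). In M1 *Egr2* was 4.24-fold higher in KpCKO, by 2.09 in culture 1 and 2.08 in culture 2 (limma, adjusted p = 0.0335). That call was lost without WT M1 replicate 2 (1.54, adjusted p = 0.161), without KpCKO M1 replicate 1 (1.53, adjusted p = 0.172), without the filter on dim genes (adjusted p = 0.0508) and with only these groups in the fit (adjusted p = 0.159). In M2 the difference was 0.39, with a 95% interval of −0.75 to 1.53.

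The IL-4 response of *Egr2* was smaller in KpCKO by 2.59 on the log2 scale (95% interval −4.21 to −0.98, unadjusted p from limma's fit 0.00682), by 2.80 in culture 1 and 2.38 in culture 2. After adjustment over all genes it did not pass (limma, adjusted p = 1), 0 of the 9 members passed and 1, *Egr2*, had an unadjusted p under 0.05, and 0.00894% of all genes passed. For the M1 response 0.0716% of all genes passed and 0 of the 9 members, with 2 of the 9, *Myc* and *Kdm6b*, under an unadjusted p of 0.05. Of 4 tested EGR relatives and corepressors, 3 were lower in KpCKO M1 and 1 in KpCKO M2. *Egr1*, the immediate early relative, was lower in KpCKO M1 (−1.10, limma, adjusted p = 0.0149) and KpCKO M2 (−1.14, limma, adjusted p = 0.0368), and the EGR corepressors *Nab1* (−0.79) and *Nab2* (−1.14) were lower in KpCKO M1.

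*Kdm6b* was at 1.0 and 1.35 in KpCKO M1, against 2.45 and 3.05 in WT M1. The difference of −1.58 ± 0.21 (SE), or 2.98-fold, was −1.46 in culture 1 and −1.70 in culture 2 (limma, adjusted p = 0.00647). It passed with each array left out, and was lost with only these groups in the fit (adjusted p = 0.159). In M2 *Kdm6b* was at −0.97 and −0.51 in KpCKO and at −0.34 and 0.52 in WT, without overlap, and the difference of −0.83 (95% interval −1.32 to −0.33) did not pass after adjustment (limma, adjusted p = 0.131). In Con it was −0.35 (limma, adjusted p = 0.56). The M1 response of *Kdm6b* was smaller in KpCKO by 1.23 (95% interval −1.93 to −0.53, limma, adjusted p = 0.162).

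*Il2rg* was at 3.41 and 3.78 in KpCKO M1, below both WT M1 arrays, with a difference of −0.70 ± 0.15 (SE, limma, adjusted p = 0.0254). That call was lost with quantile normalization (−0.49, adjusted p = 0.0511), with normexp (adjusted p = 0.0597), without culture as a replicate block (adjusted p = 0.0505), without WT M1 replicate 2 (−0.59, adjusted p = 0.123) and without KpCKO M1 replicate 1 (−0.53, adjusted p = 0.134). The differences in Con and M2 were both −0.34, and KpCKO lay below WT in both cultures of each condition. *Il4ra*, by contrast, differed between the genotypes by 0.03 (Con), −0.02 (M1) and −0.08 (M2), with 95% intervals within −0.44 to 0.39. *Il13ra1*, *Myc*, *Klf4*, *Pparg* and *Batf3* did not pass limma's test in any condition, and their differences ran from −0.67 (*Klf4* in M1) to 0.57 (*Batf3* in Con). *Klf4* was lower in KpCKO culture 1 by 0.55 in Con and 0.94 in M2, and higher in KpCKO culture 2 by 0.60 and 0.27.

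The average over the 3 conditions rests on 1 mouse per genotype in each of 2 cultures. The model counted the 3 arrays of a mouse as separate, so the p-values take no account of arrays sharing a mouse. Averaged so, 3 of 9 genes passed, where 17.1% of all genes were called. They were *Egr2* (1.82, limma, adjusted p = 0.00675), *Kdm6b* (−0.92, limma, adjusted p = 0.00382) and *Il2rg* (−0.46, limma, adjusted p = 0.0133, and without WT Con replicate 1 −0.43, adjusted p = 0.0515).

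**Figure D4:**
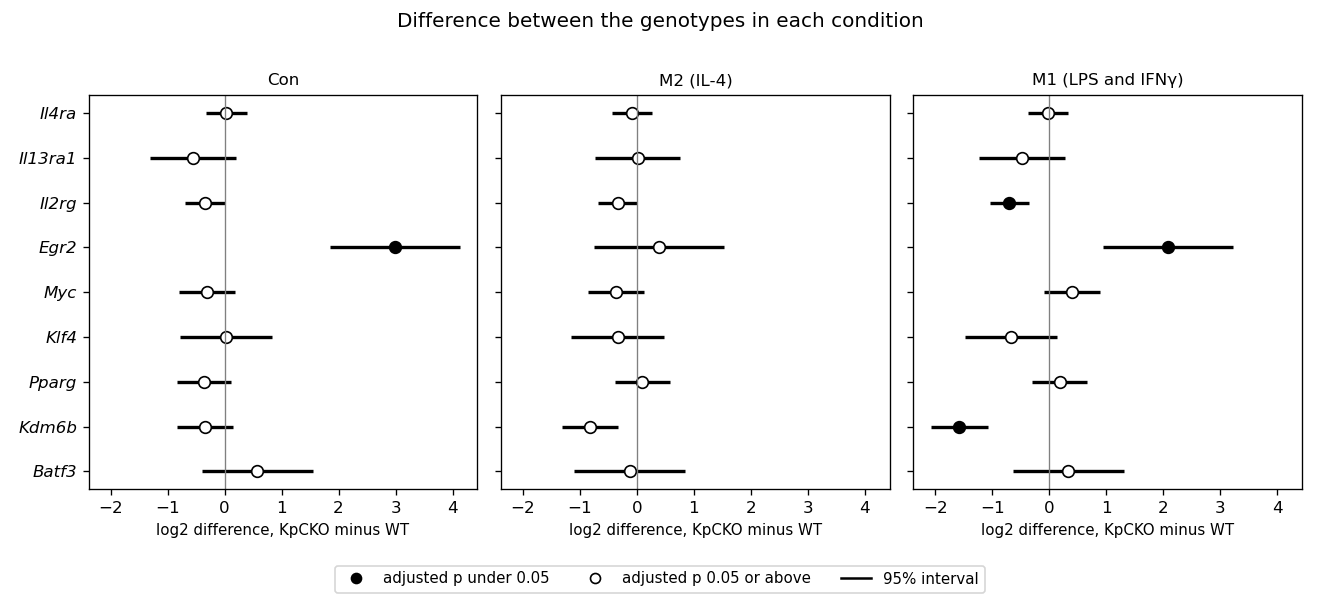
Log2 difference KpCKO minus WT (horizontal axis) of the 9 genes in Con, M2 and M1, with 95% intervals; filled points passed limma's test. *Egr2* lies right of 0 in Con and M1 and near 0 in M2, and *Kdm6b* lies left of 0 in all 3 conditions.

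The genes around the members were taken as pathway lists, counted by the same fit. Their counts are read against the shares of all genes called. These were 16.8% under IL-4 in WT, 10.2% under IL-4 in KpCKO, 63.2% in WT M1 and 16.0% between the genotypes in M1. The shift between the 2 scalings given above for the genotypes in M1 bears on small differences in these lists too. Among 9 tested genes for related receptor chains, the ligands IL-4 and IL-13 and the IL-13 decoy receptor, 2 rose under IL-4 in WT. These were *Il13ra2*, the IL-13 decoy receptor, at least 6.33-fold as its Con signal was not well above background, and *Il21r* (1.10). In WT M1 5 of 9 rose and 2 fell, among them *Il15ra* (5.02), which binds IL-15, and *Il7r* (−2.73), the IL-7 receptor chain that pairs with the gamma chain.

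Of 12 kinases, STAT6 and adaptors, only *Jak2* passed under IL-4 (1.98, limma, adjusted p = 0.0019), while 7 rose and 3 fell in WT M1. *Stat6* itself differed by −0.14 under IL-4 and fell by 0.54 in WT M1 (limma, adjusted p = 0.0165). In KpCKO M1 3 of these genes were lower than in WT, *Jak2* (−1.21), *Pik3cd* (−0.85) and *Gab2* (−0.65).

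Of 12 inhibitors of IL-4 signalling, 5 rose under IL-4 in WT and 5 in KpCKO. *Cish* (6.92 in WT and 7.32 in KpCKO), *Socs1* (6.18 and 5.90) and *Socs2* (3.34 and 3.72) encode SOCS family feedback inhibitors, and *Dok2* rose by 2.12 and 1.31. In WT M1 8 of 12 rose and 1 fell, with *Socs1* (8.74), *Socs3* (6.54) and *Cish* (5.76) higher and *Inpp5d*, the phosphatase SHIP1, lower (−2.79). With quantile normalization 5 rose, 1 fell and *Ptpn1* changed sign. Against WT, 2 of the 12 were higher in KpCKO M1, *Ptpn1* (1.08) and *Inpp5d* (0.71), and 2 were lower, *Cish* (−1.05) and *Ptpn2* (−0.44).

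Of 13 genes of ribosome and nucleotide synthesis that MYC is known to drive, 10 rose under IL-4 in WT and 7 in KpCKO. *Ppan* (1.31 and 1.12), *Srm* (1.29 and 0.91) and *Nop58* (1.20 and 0.88) rose in both genotypes. In WT M1 3 rose and 2 fell, and 3 rose and 6 fell with quantile normalization. Of 9 partners and antagonists of MYC, 4 rose and 4 fell in WT M1, with *Mycl* (4.29), *Max* (2.69) and *Mxd1* (2.59) higher and *Mxd4* (−3.05) lower.

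Around *Egr2*, *Egr1* (1.08) and *Nab2* (1.03) rose under IL-4 in WT, 2 of 4 tested. Of 10 other KLF genes 2 rose and 2 fell, *Klf9* (1.56), *Klf16* (0.96), *Klf3* (−0.73) and *Klf6* (−0.46). Of 8 genes of H3K27 methylation and demethylation, the *Kdm6b* paralogue *Kdm6a* alone passed under IL-4, and it fell (−0.76 in WT and −0.74 in KpCKO).

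Among 9 partners and relatives of PPARγ, 2 rose and 1 fell under IL-4 in WT, and 2 rose and 5 fell in WT M1. The coactivator *Ppargc1b* rose under IL-4 (3.11 in WT and 2.75 in KpCKO) and under LPS with IFNγ (3.23). *Rxra*, the heterodimer partner, fell in WT M1 (−3.36, limma, adjusted p = 5.63e-05). It lay above WT in KpCKO M1 (1.23, limma, adjusted p = 0.027), where 2 of the 9 were higher and 0 lower. Of 9 lipid genes that PPARγ is known to target, 2 fell under IL-4 in WT, *Angptl4* (−1.54) and *Plin2* (−0.91), and 5 fell and 1 rose in WT M1, *Angptl4* by −3.68 and *Fabp4* by −3.19. *Cd36*, the scavenger receptor of this list, was higher in KpCKO by 2.18 (Con), 2.53 (M1) and 2.13 (M2). The authors also name *Cd36* as a target of NRF2, and *Pparg* itself did not pass between the genotypes in any condition. The part of either factor in the *Cd36* difference was not tested.

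Among 10 BATF relatives and partners, 6 rose and 1 fell under IL-4 in WT, with *Irf4*, the IRF that BATF factors bind, up by 5.60 ± 1.08 (SE, limma, adjusted p = 0.0165), *Batf* up by 1.25 and *Fos* down by 1.77. In WT M1 5 of the 10 rose and 3 fell, with *Batf2* (7.03), *Irf8* (3.33) and *Batf* (2.76) higher. Beside these, 4 of 5 dendritic cell markers on the array rose in WT M1, with a summed level, as a multiple of the 75th percentile, of 0.318 to 0.419 in WT Con, 0.422 to 0.459 in WT M2 and 1.41 to 2.37 in WT M1 (1.06 to 1.34 in KpCKO M1). T cells also express *Il2rg*. Of 5 T cell markers *Cd247* (at least 648-fold) and *Lck* (7.61) rose in WT M1, the summed level was 0.118 to 0.131 in WT Con and 5.99 to 6.35 in WT M1 (4.86 to 6.81 in KpCKO M1), and *Cd3d* was not above background on any array. The part of these markers in the members' M1 differences was not tested.

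The output genes of the stimuli and the NRF2 targets were counted too. Their lists were chosen with earlier results of these data known, so they are not an independent check of the labels. Of 15 IL-4 output genes 13 rose in WT M2 and 11 in KpCKO M2, and *Arg1* differed by 10.38 and 10.48. Of 12 M1 output genes 12 rose in WT M1. Of 12 NRF2 targets, 10 were higher in KpCKO Con, 9 in KpCKO M1 and 8 in KpCKO M2.

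Across the 12 arrays the members fell into a few shapes, given as Pearson correlations that share slides, mice and stimuli and carry no test. *Il4ra* and *Il2rg* ran together (r = 0.940), as did *Il13ra1* and *Il2rg* (0.935), *Il2rg* and *Kdm6b* (0.916), *Myc* and *Pparg* (0.883) and *Egr2* and *Batf3* (0.858). The strongest relations were negative, those of *Pparg* with *Il2rg* (−0.964) and *Il13ra1* (−0.959), and *Myc* with *Il13ra1* was at −0.914. Among 12110 genes with a RefSeq symbol and a signal well above background on all arrays, the genes most like *Egr2* were *Il27ra* (0.960), *Fkbp8* (0.946) and *Mcf2l* (0.932), and those most like *Batf3* were *Pcid2* (0.983), *Prkcd* (0.978) and *S1pr3* (0.975). *Il2rg* was matched most closely by *Mmp25*, *Vamp8* and *Psme2* (0.996 to 0.997), *Il4ra* by *Maff*, *Erap1* and *Stk19* (0.985 to 0.986), and *Il13ra1* by *Trps1*, *Daam1* and *Syk* (0.987 to 0.989). *Pparg* was matched by *Dhrs3*, *Etl4* and *Zfp280c* (0.993 to 0.995), *Myc* by *Casp6*, *Osgep* and *Rbsn* (0.986 to 0.991), *Kdm6b* by *Elavl1*, *Eml4* and *Farsa* (0.989 to 0.990) and *Klf4* by *Tiam1*, *Sft2d2* and *Flt1* (0.968 to 0.977). The best match of *Egr2* was the loosest of the 9 genes. A correlation takes no account of the size of a change. *Fkbp8* spanned 0.328 on the log2 scale over the 12 arrays, against 5.85 for *Egr2*, and *Pcid2* spanned 1.32, against 5.73 for *Batf3*. Other matches spanned more than the member, such as *Maff* with 6.22, against 1.94 for *Il4ra*.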

How the data were processed

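RNA of BMDMs was hybridised to 12 one-colour Agilent arrays whose annotation uses mouse build mm9. Per the labels and the file headers, the authors scanned and extracted the arrays with Feature Extraction 10.7.3.1, and the deposited scanner files give the processed intensity of each spot, corrected for background. A deposited matrix of log2 values by the authors, shared on 40749 probes, was used as an alternative. Each spot's log2 intensity was set to its array's 75th percentile, outlier spots were left out and spots of a probe were averaged. The brightest probe stood for a gene, and a gene was kept when well above background on both arrays of a group, which left 22373 genes. No read depth applies to arrays, and their number, 2 per group, limits the precision.

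The model of limma 3.58.1 (R 4.3.3) had group and culture as terms, 5 residual and 1.92 prior degrees of freedom, and Benjamini-Hochberg adjustment over all genes. Culture was a replicate block because each number marks 1 culture of 1 mouse per genotype, and deviations of same-numbered arrays correlated at r = 0.162 to 0.597 in 15 pairs of groups. Where a gene was not well above background in 1 group, a fold is a lower bound, set against the higher of its own signal and the lowest signal well above background on each array. With 2 arrays a group, the smallest two-sided p of an exact permutation test is 0.333, and none was run. The fit was tested on simulated data. Genes were named by rule: all members, up to 4 called genes of each list with the largest difference, and the 3 most correlated genes of each member. *Keap1* served as the check of the labels. The members and lists were chosen with earlier results of these data known. Alternatives were quantile normalization, normexp with an offset of 50, other filters, probe averages, other variance models, each array left out and the methods' unpaired t-test, run for 8 of the 10 comparisons. The authors chose array genes by fold change in each of 2 independent mice or cultures, so this t-test is not their own array analysis. Tables and plots used Python 3.11.15, pandas 2.3.3 and matplotlib 3.10.9.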

Additional observations from a re-analysis of the deposited data

How the results depend on the processing

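Across the 90 member comparisons and 1425 values under alternatives other than the methods' t-test, 59 values changed sign, and 0 of these belonged to a comparison that passed limma's test; the largest of them was 0.45 in size. Of 508 values for the 34 comparisons that passed, 451 still passed, and of 917 for the others 2 did. Without culture as a replicate block, 5 members passed in WT M2, 4 in KpCKO M2 and 2 in KpCKO against WT in M1, in place of 6, 6 and 3, and the other counts stayed at 8, 7, 1, 0, 3, 0 and 0. The methods' t-test after Benjamini-Hochberg adjustment gave 0 members in WT M2, KpCKO M2, KpCKO M1, and for KpCKO against WT in Con, M1 and averaged, and 5 in WT M1. Over all genes it gave 2 in WT M2, 2934 of 22233 in WT M1, 172 of 22372 averaged and 0 in the others. Unadjusted, it gave between the genotypes 2 members in Con, *Egr2* and *Il2rg* (1618 of 22323 genes), and 2 in M1, *Il13ra1* and *Kdm6b* (2729 of 22202). It gave 1 in M2, *Il2rg* (1740 of 22207), and 0 averaged (1647 of 22372). The averaged t-test pooled the arrays of a genotype without regard to stimulus, so the responses to the stimuli count as spread. Members that respond to a stimulus could therefore hardly pass it. With only the groups compared, 0 members passed in KpCKO M2 and between the genotypes in Con and M1, where 1 of 22372 genes and 0 of all genes passed, and without the filter on dim genes 0 passed in Con. Leaving out 1 array gave 4 to 5 members in WT M2, 2 to 3 in KpCKO M2, 7 to 8 in WT M1, 7 in KpCKO M1, and, between the genotypes, 0 in Con, 1 to 3 in M1 and 2 to 3 averaged. The lone array left in a group is then assumed to vary like the others. With 2 arrays a group and 1 slide a stimulus, a missed threshold does not show that values did not differ. The t-test was not run on the differences between responses.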
